A study of Mus musculus with 19 samples.

Results

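The 38 genes described here mark neurons and their synapses. They were chosen by name, as every entry of the deposited table that carries 1 of 38 gene symbols, and all 38 were found among the 60567 genes listed. Grin2a, Reln and Scn2a1 each stand on 2 entries, of which the one with more reads was used. Their positions are those of the table on the mm10 mouse genome, and each overlapped the gene of its name in GENCODE M21, where Scn2a1 is called Scn2a.

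At a chemical synapse, vesicles loaded with transmitter dock at the membrane of the axon terminal and fuse when calcium enters. On the other side, glutamate opens AMPA and NMDA receptors that are held in place by scaffold proteins of the postsynaptic density. Neurons of the hippocampus are mostly excitatory pyramidal and granule cells, with inhibitory interneurons that release GABA, and some granule cells are born in adult life. Astrocytes surround these synapses, take up transmitter and share a number of membrane and release proteins with neurons.

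RNA was sequenced from cells of the hippocampus of 9 month-old male C57bl6 mice, sorted by FACS on the green fluorescent protein GFP. All mice had received adeno-associated vectors (AAV) in the CA1 region, with the gfaABC1D promoter, a short form of the promoter of the astrocyte gene Gfap, so that GFP+ cells are infected astrocytes. WT-GFP mice were non-transgenic littermates given AAV-GFP (7 samples of GFP+ astrocytes). APP-GFP mice carried the APP/PS1dE9 transgenes, used as a model of amyloid deposition in Alzheimer's disease, and were given AAV-GFP (4 samples). APP-SOCS3 mice carried the same transgenes and were given AAV-SOCS3 together with AAV-GFP, SOCS3 being an inhibitor of the JAK2-STAT3 pathway (5 samples). GFP- cells were the other sorted cells of WT-GFP mice, which the study describes as neurons, microglia and precursors of oligodendrocytes together with astrocytes the vector had not reached (3 samples). No GFP- cells of transgenic mice were sequenced. Both hippocampi of a mouse were sorted separately, and whether 2 samples share a mouse is not stated, so that p-values measure the spread between samples and may be too small.

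Between 19331876 and 32621917 reads fell on genes in each sample. More than 3 reads were found for 14694 to 24138 genes in GFP+ samples and for 28141 to 28912 genes in GFP- samples. The 15 astrocyte markers were all called higher in GFP+ astrocytes, by a median log2 fold change of 3.88. Socs3 was at 13296 to 37750 in APP-SOCS3 astrocytes, above the 438 to 1639 of the other GFP+ samples, and at 10320 to 17689 in GFP- cells. A level here is the number of reads divided by a size factor of the sample, and 1 read was worth 0.756 to 1.18 units. In such bulk samples, fewer cells of a type and less RNA per cell cannot be told apart.

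The first question was how far these genes set GFP+ astrocytes apart from the other cells of WT-GFP mice, and GFP+ samples in this comparison are the 7 of WT-GFP mice. Log2 fold changes are given ± their standard error. The log2 fold change was below 0 for 29 of the 37 genes tested. Of these 37 genes, 18 were called lower (48.6%) and Dlg4 alone was called higher, where a gene is called if its fold change reaches 1.5 and its p before adjustment does not exceed 0.05. Among all 26709 genes tested, 33.5% were called lower and 9.25% higher. The median log2 fold change of the 37 genes was -2.81 (-2.72 with Gad2 at the bound given below), and that of all genes was -1.31, so that a gene which only followed the bulk of genes would also be lower. After adjustment over all genes, 13 of the 37 had a p under 0.05, of which 12 were lower, beside 31.9% of all genes. The groups did not overlap for 13 genes that were lower in every GFP+ sample than in any GFP- sample, beside 27.2% of all genes, and for Dlg4 in the other direction, beside 7.57%. Of the 37 genes, 6 passed the minimum level only through GFP- cells: Grin2a, Grin2b, Gad2, Slc17a6, Dcx and Scn2a1. These genes could enter the test only with GFP- cells as the higher group, and all but Grin2b were called lower. Sst passed only through GFP+ astrocytes, and Slc32a1 was not tested. The median of all genes was -1.50 with samples scaled to equal totals, with 18 calls lower and 1 higher as before. It was -0.37 with edgeR and -0.67 with DESeq2, which change the model as well as the scaling, and the calls were then 9 lower and 3 higher (Dlg4, Vamp2 and Sst) and 11 lower and 2 higher (Dlg4 and Vamp2).

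**Figure D1:**
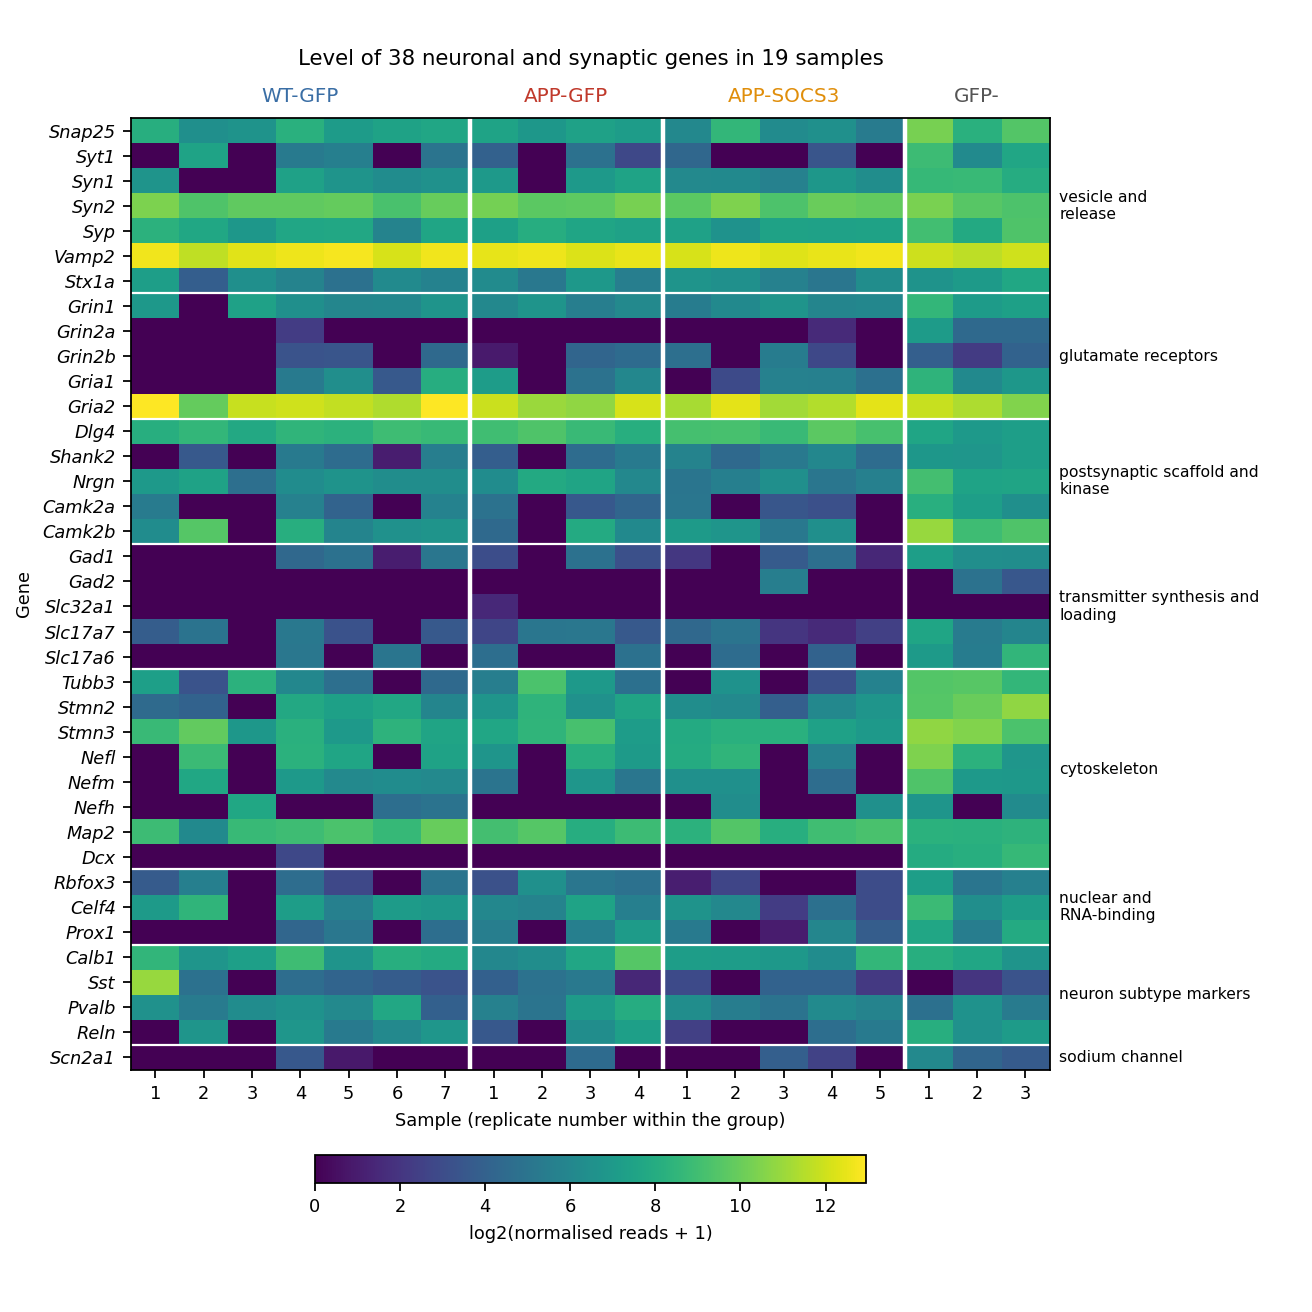
Level of each of the 38 genes (rows, ordered by role) in each of the 19 samples (columns, by group and replicate number), as log2(normalised reads + 1), from dark (0) to yellow (high). The row of Dcx is dark in 15 of 16 GFP+ samples and light in the 3 GFP- samples, whereas the rows of Vamp2, Gria2, Syn2 and Map2 are light in all groups.

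Genes of vesicle docking and fusion were split. Snap25 (chr2:136713450-136782427) encodes a SNARE protein of the axon terminal membrane. Its level was 85.2 to 302 (median 176) in WT-GFP astrocytes and 1254, 298 and 721 in GFP- cells. Of the 7 GFP+ samples, 6 lay below the lowest GFP- sample, and the mean was 24.1% of the GFP- mean, with a log2 fold change of -1.95 ± 0.54 and an adjusted p of 0.0191 by limma. Vamp2 (chr11:69088509-69092381), the SNARE protein of the vesicle itself, was at 3327 to 7101 (median 6323) in WT-GFP astrocytes and at 3930.1, 3278 and 4189 in GFP- cells. Of the 7 GFP+ samples, 6 lay above every GFP- sample, and the groups overlapped through WT-GFP replicate 2. The log2 fold change was 0.54 ± 0.23, under the fold required for a call, with an adjusted p of 0.0963, but 1.86 above the median of all genes. Syn2, a synapsin that tethers vesicles, was at 601 to 1342 (median 896) in WT-GFP astrocytes and 1281, 758 and 636 in GFP- cells, and the ranges overlapped (log2 fold change 0.04 ± 0.30, 95% interval -0.62 to 0.70). Syn1, its paralog, ran from 0 to 172 (median 92.5) against 405, 418 and 255 and every GFP+ sample was lower. With 2 GFP+ samples at 0, the log2 fold change of -3.65 ± 1.77 was not called (adjusted p = 0.139). Syt1, the calcium sensor of release, was called lower at 17.1% of the GFP- mean, with 0 to 182 (median 30.5) against 467, 72.6 and 203 and an adjusted p of 0.0985. Syp, a protein of the vesicle membrane, was called lower at 39.6% (adjusted p = 0.0835), which was -0.05 from the median of all genes. Stx1a, the syntaxin that pairs with Snap25, was at 44.1% of the GFP- mean and was not called (adjusted p = 0.174). Of 20 alternative settings, Syt1 lost its call in 10, among them edgeR, DESeq2 and each fit that left out 1 GFP- sample. Syp lost it in 4, and Snap25 kept it in all 20.

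Among glutamate receptors, Grin2a was the one called. It encodes a subunit that NMDA receptors acquire as neurons mature. WT-GFP astrocytes had 3.93 in replicate 4 and 0 in the other 6 samples, whereas GFP- cells had 137, 20.4 and 20.3. The groups did not overlap, and the mean was 0.948% of the GFP- mean (log2 fold change -4.99 ± 0.77, adjusted p = 0.000621). Gria2 (chr3:80684936-80802836), the AMPA receptor subunit that limits calcium entry, ran from 956 to 7909 (median 3687) in WT-GFP astrocytes and was at 3729, 2575 and 1449.5 in GFP- cells. The groups overlapped and the gene was not called, with a log2 fold change of 0.59 ± 0.58 and a 95% interval of -0.68 to 1.86. Gria1, another AMPA subunit, had no read in 3 of the 7 GFP+ samples and 265 in replicate 7, against 341, 68.8 and 115 in GFP- cells. It was not called (log2 fold change -3.79 ± 1.90, adjusted p = 0.149). Grin1, the subunit every NMDA receptor contains, was 2.63-fold and Grin2b, a subunit found early in development, 2.04-fold higher in the mean of GFP- cells, and neither was called (adjusted p = 0.279 and 0.252).

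All 5 genes of the postsynaptic scaffold and its kinase were called, 4 lower and 1 higher. Dlg4 (chr11:70018605-70045529) encodes PSD-95, the main scaffold of excitatory synapses. The level of Dlg4 was 226 to 479 (median 352) in WT-GFP astrocytes and 196, 125 and 154 in GFP- cells. Each GFP+ sample exceeded each GFP- sample, by 2.21-fold in the mean (log2 fold change 1.13 ± 0.34, adjusted p = 0.0256, exact permutation p = 0.00833, the smallest that 7 and 3 samples allow). Shank2, a scaffold protein that lies deeper in the postsynaptic density, went the other way, from 0 to 45.1 (median 11.4) against 115, 112 and 151. Its groups did not overlap, at 13.5% of the GFP- mean (adjusted p = 0.0497). Nrgn, which binds calmodulin in dendrites, was at 25.9 to 175 (median 81.2) against 548, 178 and 188, again without overlap (log2 fold change -1.64 ± 0.63, adjusted p = 0.0702). Camk2a and Camk2b encode the subunits of the calcium and calmodulin dependent kinase of the synapse, and were called lower at 13.0% and 18.6% of the GFP- mean, with adjusted p values of 0.0656 and 0.11. For Camk2b, WT-GFP replicate 2 reached 753 and lay within the range of GFP- cells (2000.5, 482 and 659). Of 20 alternative settings, Camk2b lost its call in 11, at -4.46 to -2.16, among them those without WT-GFP replicate 1, 5, 6 or 7 or any 1 GFP- sample. Camk2a lost it in 5, including the fits without GFP- replicate 1 (-3.87) or 2 (-4.31). Shank2 (-3.97 without GFP- replicate 3) and Nrgn (-1.11 without GFP- replicate 1) lost it in 2 each. With edgeR, Shank2, Camk2a and Camk2b were not called.

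**Figure D2:**
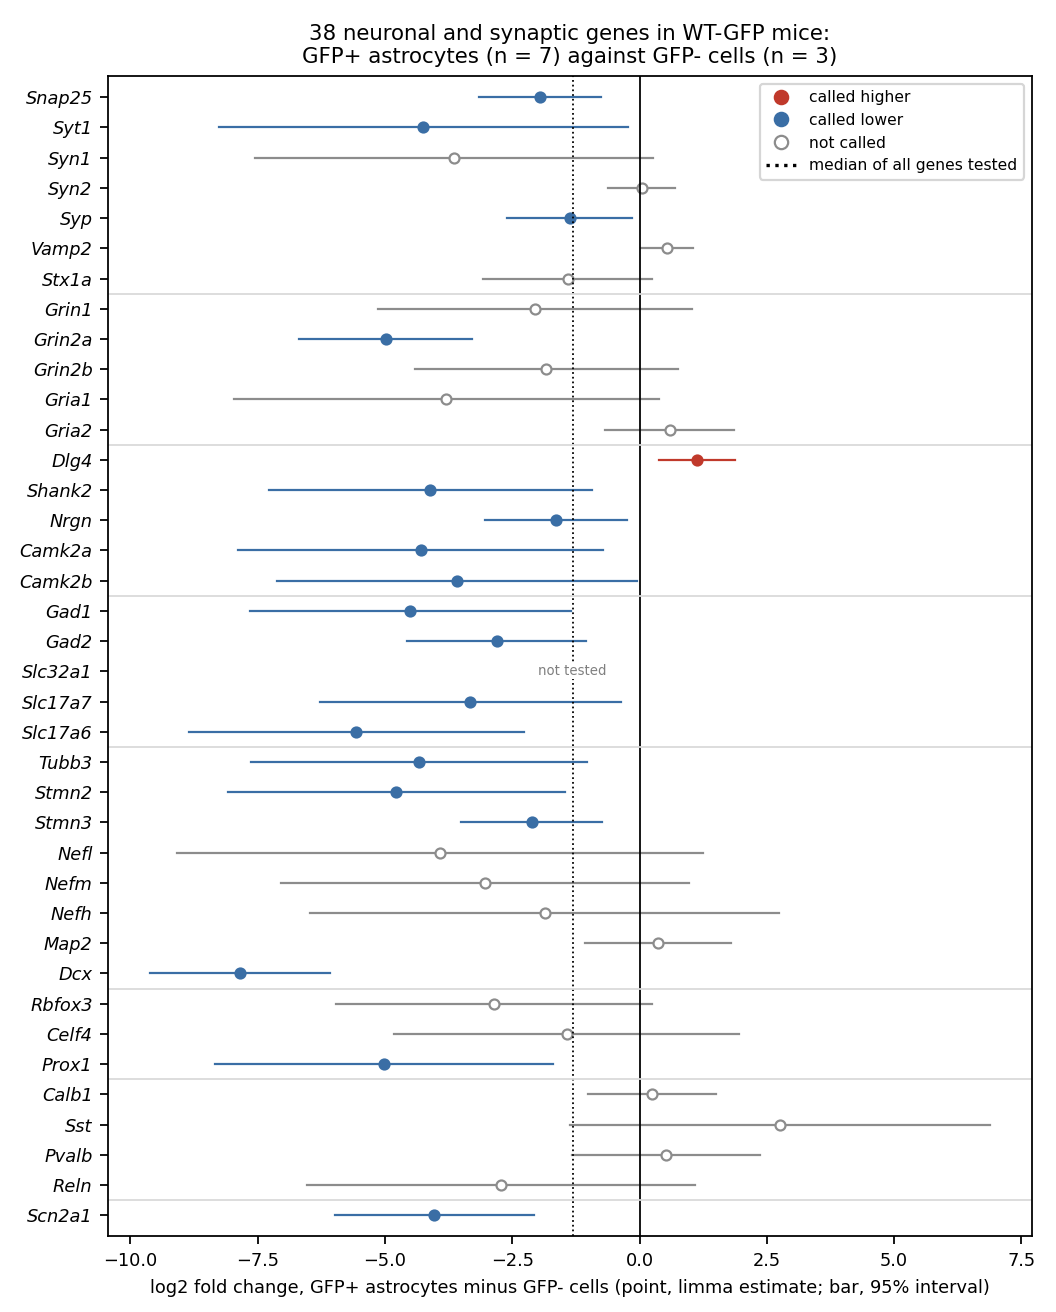
Log2 fold change of each gene in GFP+ astrocytes (n = 7) minus GFP- cells (n = 3) of WT-GFP mice, with its 95% interval from limma; filled points were called, and the dotted line is the median of all genes tested (-1.31). Dlg4 stands to the right at 1.13, Vamp2, Syn2, Gria2 and Map2 lie near 0, and Dcx lies farthest to the left at -7.85.

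All 4 genes tested that make or load transmitters were called lower. Gad1 and Gad2 encode the enzymes that make GABA. Gad1 was at 0 to 32.7 (median 1.04) in WT-GFP astrocytes and 155, 84.7 and 81.3 in GFP- cells, with no overlap (log2 fold change -4.50 ± 1.43, adjusted p = 0.0338). Gad2 had no read in any WT-GFP astrocyte sample and was at 0, 28.7 and 10.6 in GFP- cells, so that 1 GFP- sample was also at 0. Against a floor of 3 reads in each sample, Gad2 was at least 4.32-fold lower in GFP+ astrocytes. Slc32a1, the transporter that loads GABA into vesicles, had no read in GFP- cells and was seen in 1 of the 19 samples, APP-GFP replicate 1, with 2 reads. Slc17a7 and Slc17a6 load glutamate. Slc17a7 was at 14.4% and Slc17a6 at 5.22% of the GFP- mean, both without overlap (adjusted p = 0.0807 and 0.0167). The GFP- values of Slc17a6 were 134, 42.3 and 370.3, and 5 of the 7 WT-GFP astrocyte samples were at 0. With edgeR Gad2 alone of these 4 stayed called, and with DESeq2 Slc17a7 alone. Slc17a7 also lost its call without GFP- replicate 1 (-2.68) or 3 (-3.53).

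Of the cytoskeletal genes, Dcx showed the widest gap. Dcx (chrX:143855843-143933316) encodes doublecortin, a microtubule protein of newborn and migrating neurons. It was at 245, 274 and 414 in GFP- cells. Among GFP+ samples, WT-GFP replicate 4 had 5.90 and all 15 others had no read, so the mean of WT-GFP astrocytes was 0.271% of the GFP- mean (log2 fold change -7.85 ± 0.80, adjusted p = 3.1e-05). Stmn2 and Stmn3 encode stathmins, which regulate microtubule assembly in growing neurites. Stmn2 was at 0 to 224 (median 57.5) in WT-GFP astrocytes and 741, 1022 and 1775 in GFP- cells, with no overlap, and Stmn3 at 113 to 902 (median 298) and 1812, 1428 and 618, with overlap through WT-GFP replicate 2. Both were called lower, at 8.43% and 26.5% of the GFP- mean (adjusted p = 0.0323 and 0.0256). Dcx, Stmn2, Stmn3 and Snap25 were the 4 genes that kept their call lower in all 20 alternative settings. Tubb3, the tubulin of neurons, was also called lower, at 13.7% (adjusted p = 0.0468). Tubb3 lost this call without GFP- replicate 1 (-4.21) or 2 (-4.14) and with the replicate block (-2.89). Map2, a microtubule protein of dendrites, was at 70.4 to 991 (median 462) in WT-GFP astrocytes and 309, 297 and 331 in GFP- cells, and 6 of 7 GFP+ samples lay above the GFP- samples (log2 fold change 0.36 ± 0.65, adjusted p = 0.687). The neurofilament genes Nefl, Nefm and Nefh, which form the core of axons, were at 26.5%, 25.2% and 61.3% of the GFP- mean and were not called (adjusted p = 0.22, 0.222 and 0.507). Nefl had no read in 6 of the 16 GFP+ samples and Nefm in 5, and in those 5 samples both were at 0. These 2 genes overlap on opposite strands of chr14. With strand not stated for the counting, reads from the overlap cannot be assigned to one of them. The limit is wider, as 17 of the genes described here have a gene on the opposite strand, among them Snap25, Syn2, Map2 and Rbfox3. Reads from such a gene may be part of their levels, and how many was not tested. The entries of 3 genes also hold another symbol.

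Of the 3 genes of nuclear and RNA-binding proteins of neurons, 1 was called lower. Prox1, a transcription factor of dentate granule cells, was called lower at 6.76% of the GFP- mean, from 0 to 33.7 (median 0) against 205, 44.6 and 240.4 (adjusted p = 0.0267). Rbfox3, which encodes NeuN, was at 0 to 47.7 (median 12.1) against 150.3, 31.8 and 48.6, and Celf4, an RNA-binding protein of excitatory neurons, at 58.6% of the GFP- mean. Neither of the last 2 was called (adjusted p = 0.143 and 0.489). Scn2a1, a sodium channel of axons, was called lower at 5.21%, with 66.4, 17.4 and 12.4 in GFP- cells and reads in 2 of 7 WT-GFP astrocyte samples (adjusted p = 0.00575). None of the 4 markers of neuron subtypes was called. Calb1, a calcium buffer of granule cells, and Pvalb, a calcium buffer of fast interneurons, had log2 fold changes of 0.25 ± 0.57 and 0.52 ± 0.84. Reln, a secreted protein of some interneurons, was at 36.6% of the GFP- mean (adjusted p = 0.248). Sst, the neuropeptide somatostatin, was at 1959 in WT-GFP replicate 1 and at most 27.3 in the other 6 WT-GFP astrocyte samples, against 0, 3.02 and 8.84 in GFP- cells, so its mean rests on that sample.

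A list of 46 further neuronal genes was counted in the same way. Of 45 tested, 20 were called lower (44.4%) and 0 higher, with a median log2 fold change of -2.56. By limma, 10 had an adjusted p under 0.05 (22.2%, beside 31.9% of all genes) and 20 an unadjusted p under 0.05. By sub-list, 6 of 14 further presynaptic genes, 7 of 12 further postsynaptic genes and 7 of 19 further genes of neuronal identity were called lower, beside 33.5% of all genes. Of 10 genes of the neurogenic lineage, 5 were called lower and 1 higher. In the same comparison all 20 microglia, 20 endothelial, 12 mural and 9 oligodendrocyte precursor markers were called lower. The oligodendrocyte list did not share this: of its 9 markers tested, 2 were called higher, 2 lower and 5 were not called. Its median log2 fold change was -0.27, with 3 markers above 0 and 6 below.

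The promoters of 4 genes are shown because they cover the range of the comparison. Dcx and Stmn3 kept their call lower in every setting, Syn1 was lower in every GFP+ sample without a call, and Dlg4 was higher. The sequences are from RefSeq on GRCm38.p6, from 250 bases before to 50 bases after the start site of the window nearest to the gene's entry, and 25 of the 38 genes were matched to such a window. Capitals mark matches on either strand to TTCAGCACC or GGACAG, the left and right parts of the element RE1 bound by REST, a repressor of neuronal genes, or to TATAAA, the TATA box.
Dcx, chrX:143933170-143933469, minus strand: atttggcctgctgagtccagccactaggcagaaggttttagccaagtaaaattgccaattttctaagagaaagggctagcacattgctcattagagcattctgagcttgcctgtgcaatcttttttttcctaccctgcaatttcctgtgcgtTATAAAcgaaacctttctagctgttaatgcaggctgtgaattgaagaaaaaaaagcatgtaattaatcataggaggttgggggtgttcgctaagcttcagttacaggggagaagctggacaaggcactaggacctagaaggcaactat
Stmn3, chr2:181314451-181314750, minus strand: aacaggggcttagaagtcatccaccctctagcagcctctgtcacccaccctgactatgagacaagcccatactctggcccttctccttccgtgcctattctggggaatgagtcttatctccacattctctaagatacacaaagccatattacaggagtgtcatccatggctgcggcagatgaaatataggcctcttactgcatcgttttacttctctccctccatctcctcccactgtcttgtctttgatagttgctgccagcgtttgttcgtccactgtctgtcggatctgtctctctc
Syn1, chrX:20920869-20921168, minus strand: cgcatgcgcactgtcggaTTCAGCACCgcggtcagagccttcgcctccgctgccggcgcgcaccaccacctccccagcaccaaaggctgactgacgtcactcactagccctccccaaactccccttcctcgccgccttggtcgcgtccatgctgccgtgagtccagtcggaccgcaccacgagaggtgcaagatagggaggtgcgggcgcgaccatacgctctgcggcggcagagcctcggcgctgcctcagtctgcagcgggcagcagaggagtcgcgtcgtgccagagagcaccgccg
Dlg4, chr11:70018355-70018654, plus strand: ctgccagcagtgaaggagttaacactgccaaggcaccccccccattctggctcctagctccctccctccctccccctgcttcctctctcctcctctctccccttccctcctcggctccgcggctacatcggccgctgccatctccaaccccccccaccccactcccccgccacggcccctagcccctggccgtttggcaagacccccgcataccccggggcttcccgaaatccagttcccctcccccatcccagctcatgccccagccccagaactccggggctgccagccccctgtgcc

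TTCAGCACC was found in the window of Syn1 alone among the 25 genes, and in 0.371% of all 32851 windows. GGACAG was found for 12 of the 25 genes, none of these 4, and in 22.2% of all windows. TATAAA was found for Dcx, Gad1, Prox1 and Scn2a1, and in 13.6% of all windows. A gene with several windows was counted if any of them held the letters. Counts of genes and shares of windows therefore cannot be compared directly. The windows of Syn1 and Dlg4 held 68.3% and 69.0% G and C, those of Dcx and Stmn3 43.0% and 49.7%, and the median of all windows was 52.7%. A match describes letters in these windows and is no measure of binding.

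Detection of these genes differed between GFP+ samples. More than 3 reads were found for 35 to 37 of the 38 genes in GFP- cells. Astrocyte samples had 15 to 35 such genes in the WT-GFP group, 19 to 32 in the APP-GFP group and 25 to 31 in the APP-SOCS3 group. The sample with 15, WT-GFP replicate 3, and that with 19, APP-GFP replicate 2, were also those with the fewest genes of any kind (14694 and 15598). Across the 16 GFP+ samples, 12 genes had more than 3 reads in every sample and 26 were at 0 in at least 1. The median level over the 36 genes with a GFP- mean of at least 10, each as a percent of that mean, lay between 0 and 35.1% for WT-GFP and 7.57 and 35.9% for APP-GFP astrocytes. Over the 5 APP-SOCS3 samples its median was 13.9% and its lowest value 9.16%. In GFP- cells it was 59.9, 73.2 and 143.9%, and replicate 1 was the highest GFP- sample for 22 of the 38 genes. As a share of all reads on genes, the 38 genes took 0.0346 to 0.0878% in GFP+ and 0.0681 to 0.111% in GFP- samples. Vamp2 and Gria2 have high levels and log2 fold changes above 0 against GFP- cells. Without them the shares were 0.0108 to 0.0262% and 0.0398 to 0.0750%. That these shares do not overlap follows in part from which genes were left out.

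**Figure D3:**
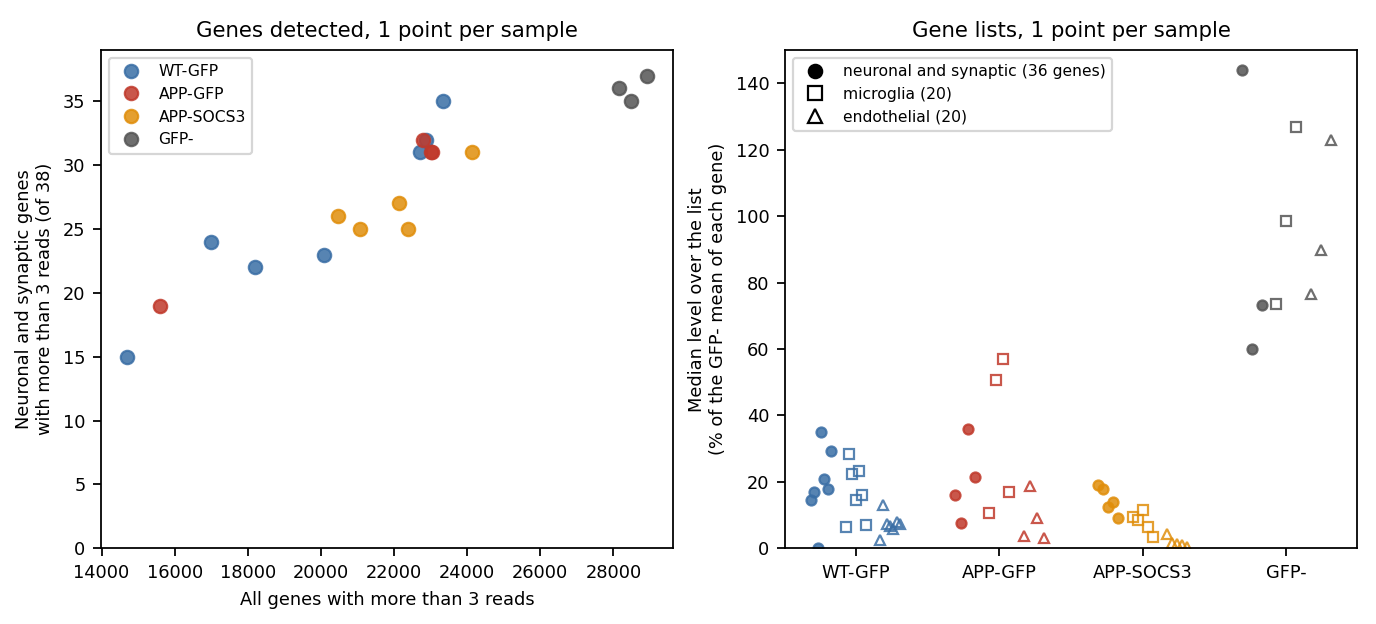
Left, number of the 38 genes with more than 3 reads (y axis) against the number of all genes with more than 3 reads (x axis), 1 point per sample. Right, median level of a gene list as a percent of the GFP- mean of each gene, 1 point per sample, for the neuronal and synaptic genes and for microglia and endothelial markers. WT-GFP replicate 3 and APP-GFP replicate 2 lie at the lower left with 15 and 19 genes, and the 3 GFP- samples lie at the upper right with 35 to 37.

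The second question was whether the APP/PS1dE9 transgenes changed these genes in GFP+ astrocytes. None of the 33 genes tested was called in APP-GFP against WT-GFP astrocytes by limma, and none had an unadjusted p under 0.05. Among all 22969 genes tested, 1.66% were called higher and 0.57% lower, and 0.00435% had an adjusted p under 0.05. The median log2 fold change was 0.25 for the 33 genes and 0.09 for all genes. With edgeR and with DESeq2 1 gene was called lower, Nefh, which had no read in the 4 APP-GFP samples and rested on 207 in WT-GFP replicate 3, with 24.9 and 29.3 in replicates 6 and 7 and 0 in the other 4. Without APP-GFP replicate 2, Prox1 was called higher at 4.05 on the log2 scale, from 2.54 ± 1.64 with all samples. The 5 genes that did not reach the minimum level were Grin2a, Gad2, Slc32a1, Dcx and Scn2a1.

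Intervals differed widely between genes. Vamp2 was at 5641, 6360.3, 4932 and 5787 in APP-GFP astrocytes, all within the WT-GFP range, with a 95% interval of the log2 fold change of -0.40 to 0.48. That of Syn2 ran from -0.33 to 0.78 and that of Dlg4 from -0.33 to 1.10. That of Pvalb, which had reads in every sample, ran from -1.42 to 2.14. Stmn2 was at 106, 342, 94.0 and 188 in APP-GFP astrocytes, above the WT-GFP median of 57.5 in each sample but within the WT-GFP range in 3 of 4, and its interval ran from -0.88 to 4.86. Tubb3 was at 616 in APP-GFP replicate 2 and at 45.3, 123 and 26.2 in the others. Rbfox3 was at 8.15, 90.1, 32.6 and 27.9 in APP-GFP and 0 to 47.7 (median 12.1) in WT-GFP astrocytes, and the groups overlapped.

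Among the 42 further neuronal genes tested, Arc alone was called, and it was higher (2.38%, beside 1.66% of all genes called higher). Arc, an immediate early gene of active neurons, was at 201, 399, 162 and 272 in APP-GFP astrocytes and 0 to 218 (median 0) in WT-GFP astrocytes, where 4 of 7 samples were at 0. The log2 fold change was 5.13 ± 1.70 with an adjusted p of 0.999. In the same comparison 4 of 20 microglia markers were called higher and all 20 had a log2 fold change above 0.

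**Figure D4:**
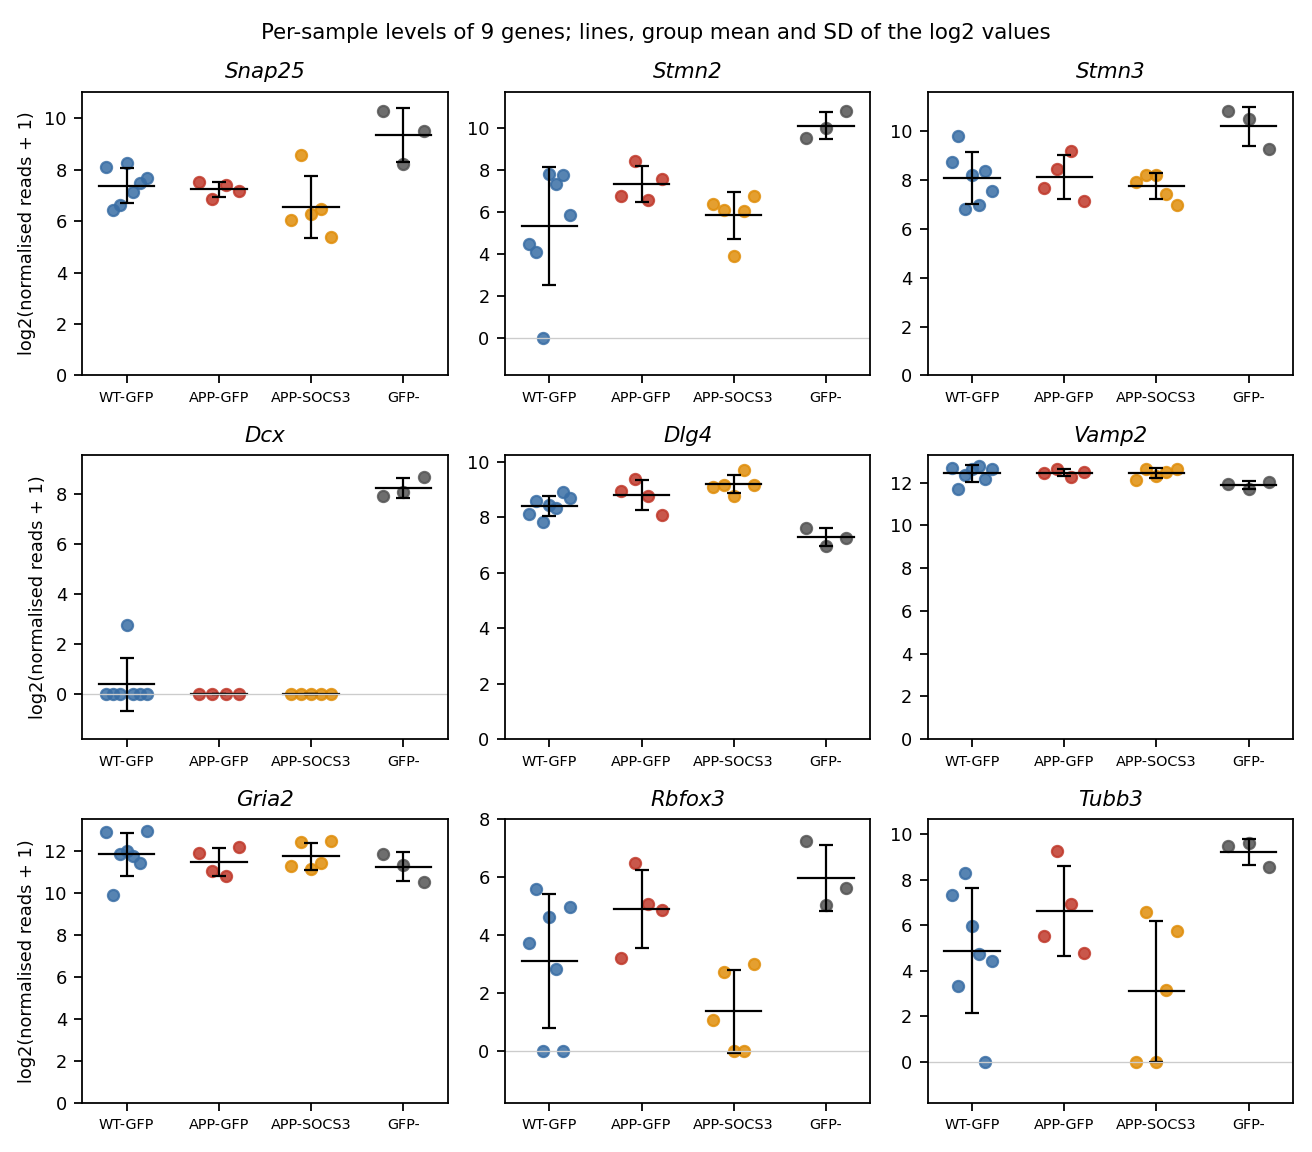
Levels of 9 genes as log2(normalised reads + 1) in each sample (points), by group; black lines are the group mean and bars the SD of the log2 values. Dcx lies at 0 in all but 1 GFP+ sample, Dlg4 lies higher in every GFP+ sample than in GFP- cells, and Rbfox3 lies lower in the 5 APP-SOCS3 than in the 4 APP-GFP samples.

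The third question was how SOCS3 changed these genes in astrocytes of transgenic mice. Rbfox3, Tubb3, Stmn2 and Nrgn were called lower in APP-SOCS3 than in APP-GFP astrocytes, 4 of 33 genes tested (12.1%), and 0 were called higher. Among all 22844 genes tested, 3.37% were called lower and 2.33% higher. No gene of the 33 had an adjusted p under 0.05 by limma, beside 0.00438% of all genes, and 4 had an unadjusted p under 0.05. Syt1, Gad1, Slc17a6, Rbfox3 and Sst reached the minimum level through APP-GFP astrocytes only and Nefh through APP-SOCS3 astrocytes only. Of the 33 genes, 25 had a log2 fold change below 0, with a median of -0.64 beside 0.08 for all genes. With edgeR and with DESeq2 the calls were 3 lower and 1 higher, Nefh, which was at 0 in all APP-GFP samples and at 79.1 and 89.6 in APP-SOCS3 replicates 2 and 5 alone.

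Rbfox3 (chr11:118489760-118911597) was the one gene of the 33 whose groups did not overlap, beside 1.09% of all genes that were lower without overlap. It was at 1.10, 5.58, 0, 0 and 7.03 in APP-SOCS3 and 8.15, 90.1, 32.6 and 27.9 in APP-GFP astrocytes. Every APP-SOCS3 sample was at most 7.03, and the gene reached the minimum level only through APP-GFP astrocytes. The log2 fold change was -3.55 ± 1.10 with an adjusted p of 0.641 and an exact permutation p of 0.0159, and the call was kept in all 18 alternative settings in which it could be tested. Among them, the fit without APP-GFP replicate 2 is counted again as the one without the samples with the fewest genes. Against WT-GFP astrocytes, where Rbfox3 ran from 0 to 47.7 (median 12.1), APP-SOCS3 astrocytes overlapped and no call was made (log2 fold change -1.75 ± 1.18).

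Nrgn was at 32.0, 46.5, 87.0, 33.3 and 48.3 in APP-SOCS3 and 77.8, 231, 188 and 64.5 in APP-GFP astrocytes. The groups overlapped through APP-SOCS3 replicate 3, and the log2 fold change was -1.38 ± 0.58 (adjusted p = 0.772, exact permutation p = 0.0317). Leaving out APP-GFP replicate 2 or 3 or APP-SOCS3 replicate 1, 2, 4 or 5 ended this call, at -1.40 to -1.07. Stmn2 was at 81.7, 67.9, 14.0, 65.7 and 108 against 106, 342, 94.0 and 188, with a log2 fold change of -1.48 ± 0.66 (adjusted p = 0.793, exact permutation p = 0.0397). It lost its call without APP-GFP replicate 2 or 4 or any of APP-SOCS3 replicates 1 to 4, and was at -1.12 without APP-GFP replicate 2. Tubb3 was at 0, 95.8, 0, 7.84 and 52.7 against 45.3, 616, 123 and 26.2, so that 2 APP-SOCS3 samples were at 0 and 1 APP-GFP sample stood far above the rest. Its log2 fold change of -3.53 ± 1.57 (adjusted p = 0.793, exact permutation p = 0.111) was -2.65 without APP-GFP replicate 2, and was then not called, nor without APP-GFP replicate 1 or 3 or APP-SOCS3 replicate 1, 3 or 4. Tubb3 was also not called with edgeR (-2.63), DESeq2 (-2.68), a pseudocount of 0.1 (-4.88) or a minimum of 100. For comparison, Vamp2 was at 4515, 6399, 5137, 5814 and 6423 in APP-SOCS3 astrocytes, with a 95% interval of the log2 fold change of -0.33 to 0.30, and that of Map2 was -0.88 to 0.75. Snap25 was at 65.1, 382, 76.0, 88.2 and 40.4, so that 4 of 5 samples lay below all APP-GFP samples and replicate 2 above them, and was not called (log2 fold change -0.68 ± 0.60). Without APP-SOCS3 replicate 2 Snap25 was called lower at -1.19.

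Markers of other cells moved in the same comparison. In APP-SOCS3 against APP-GFP astrocytes, 19 of 20 microglia markers, 16 of 19 endothelial, 5 of 12 mural and 3 of 9 oligodendrocyte precursor markers were called lower. Of 9 oligodendrocyte markers tested, 1 was called lower. The summed level of the microglia list lay between 10695 and 21456 for APP-SOCS3, 21957 and 123991 for APP-GFP and 14478 and 54114 for WT-GFP astrocytes, and reached 158754 to 265522 among GFP- cells. That of the endothelial list was 8462 to 15418, 16775 to 58933 and 12130 to 62097 in these astrocytes and 212752 to 334056 in GFP- cells. No marker of either list was at 0 throughout APP-SOCS3 astrocytes, and Erg was at 0 in all APP-GFP samples. The part of this in the values of Rbfox3, Tubb3, Stmn2 and Nrgn was not tested.

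Of 41 further neuronal genes tested, 5 were called lower (12.2%) and 2 higher (4.88%) in APP-SOCS3 against APP-GFP astrocytes. Among all genes tested, 3.37% were called lower and 2.33% higher. The median log2 fold change of this list was -0.09, with 22 genes below 0 and 19 above, beside 0.08 for all genes. Snhg11, a noncoding RNA of neurons, was at 24.3, 39.1, 98.0, 124 and 176 against 269, 287, 611 and 661, with no overlap (log2 fold change -2.51 ± 0.61, adjusted p = 0.576). Its level in GFP- cells was 4015, 1707 and 1699. Arc was at 72.9, 0, 44.0, 51.0 and 116 against 201, 399, 162 and 272, also without overlap (-3.08 ± 1.21, adjusted p = 0.719). Uchl1, a deubiquitinase of neurons, and Ina, an intermediate filament of axons, were also called lower, at -1.46 ± 0.50 and -4.20 ± 1.38 on the log2 scale. Pclo, a scaffold of the active zone, and Elavl3, an RNA-binding protein of neurons, were called higher. Pclo was at 300.3, 419, 323, 319 and 609 against 225, 130.0, 147 and 162. Elavl3 was at 30.9, 12.1, 70.0, 28.4 and 112 against 9.96, 3.79, 0 and 5.23, and for both genes the groups did not overlap. Elavl3 was below 10 in every APP-GFP sample and reached the minimum level through APP-SOCS3 astrocytes only. Among all genes tested, 1.09% were lower without overlap, and the share higher without overlap is not given here.

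**Figure D5:**
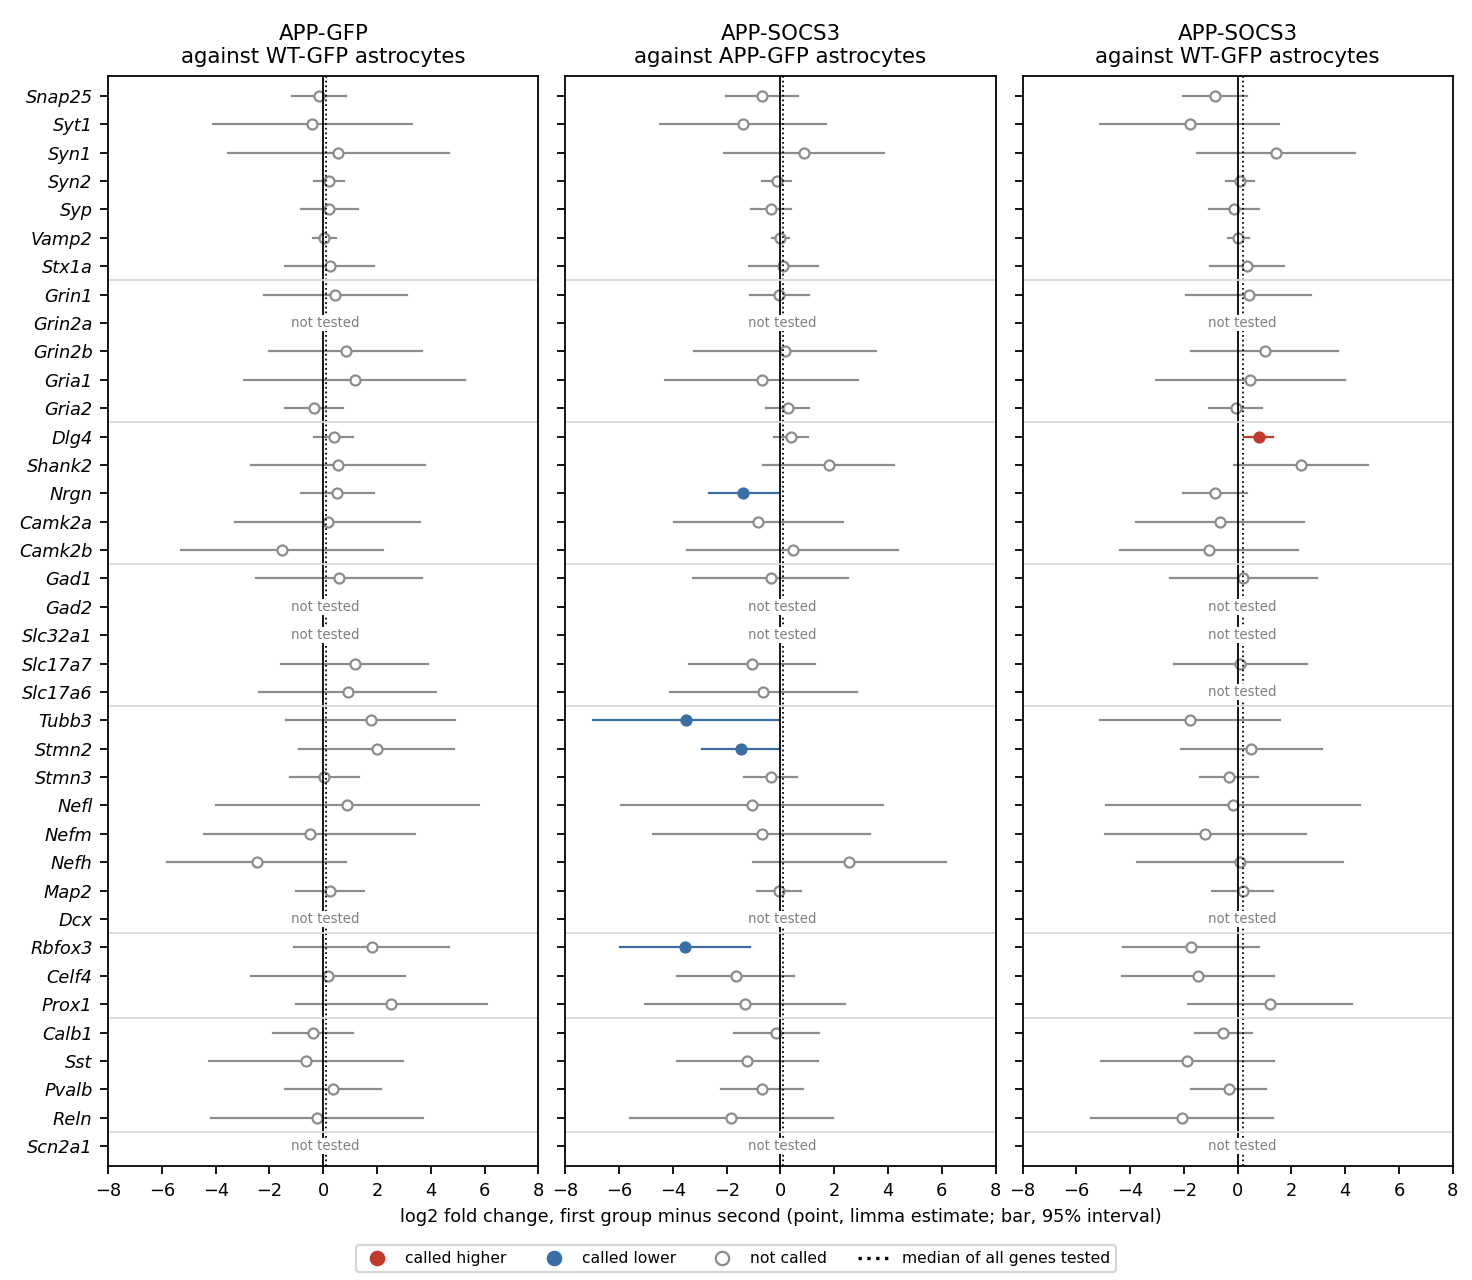
Log2 fold change of each gene with its 95% interval from limma in the 3 comparisons between groups of GFP+ astrocytes; filled points were called, and the dotted lines are the medians of all genes tested. Rbfox3, Tubb3, Stmn2 and Nrgn lie left of 0 in the middle panel, and Dlg4 lies right of 0 at 0.77 in the right panel.

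The last comparison set APP-SOCS3 against WT-GFP astrocytes, groups that differ in both transgenes and vector. It shares its samples with the comparisons above. Of 32 genes tested, Dlg4 was called higher (3.12%) and 0 lower, beside 3.19% and 2.02% of 22958 genes. No member had an adjusted p under 0.05, beside 0.0305% of all genes. Dlg4 was at 549.8, 580.4, 442, 831 and 580.0 in APP-SOCS3 and 226 to 479 (median 352) in WT-GFP astrocytes. Of the 5 APP-SOCS3 samples, 4 lay above every WT-GFP sample, and the mean was 1.70-fold higher (597 ± 143 against 350.4 ± 85.5, SD). The log2 fold change was 0.77 ± 0.25, with an adjusted p of 0.607 and an exact permutation p of 0.00505, and the call was kept in all 22 alternative settings, at 0.59 to 0.93. APP-GFP astrocytes, at 499, 665, 433 and 273, had a mean between the 2 other groups, and neither of their differences was called (0.38 ± 0.33 against WT-GFP astrocytes, and 0.39 ± 0.29 for APP-SOCS3 against APP-GFP astrocytes). Shank2, the other scaffold gene, was at 55.2, 20.5, 37.0, 63.7 and 22.9 in APP-SOCS3 and 0 to 45.1 (median 11.4) in WT-GFP astrocytes and was not called (log2 fold change 2.35 ± 1.16, adjusted p = 0.902), but was called higher without WT-GFP replicate 4 (2.76) or 7 (2.79). Without WT-GFP replicate 3, Nrgn (-1.13) and Celf4 (-2.49) were called lower, and without APP-SOCS3 replicate 2, Snap25 (-1.34). The median log2 fold change was -0.10 over the 32 genes and 0.19 over all genes. Of 41 further genes tested, Snhg11 was called lower (2.44%) without overlap (-2.37 ± 0.54, adjusted p = 0.206). Neurod6, a transcription factor of pyramidal neurons, was called higher (3.26 ± 1.47, adjusted p = 0.873). The share of all genes lower without overlap in this comparison is not given here. Here 12 of 20 microglia and 15 of 20 endothelial markers were called lower, with the summed levels given above, and their part in the values of Dlg4 was not tested.

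The order of group means summarises the 38 genes. GFP- cells had the highest of the 4 group means for 28 genes. The exceptions were Syn2, Vamp2, Map2, Calb1, Pvalb and Slc32a1, highest in APP-GFP, Grin2b and Dlg4, highest in APP-SOCS3, and Gria2 and Sst, highest in WT-GFP astrocytes. Among the 3 groups of GFP+ astrocytes the highest mean was in WT-GFP for 16 genes, in APP-GFP for 17 and in APP-SOCS3 for 5, and APP-SOCS3 had the lowest mean for 24. How often all genes show this order was not counted. Of the differences between GFP+ groups, 5 were called, with the shares of all genes given above, and none had an adjusted p under 0.05 by limma. Dlg4 was called in APP-SOCS3 against WT-GFP astrocytes only, and neither group differed from APP-GFP astrocytes by a call. For the genes without a call, the order of GFP+ group means was not tested. Many of their intervals were wide, so the lack of a call does not show equal levels.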

How the data were processed

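RNA-seq was read from 19 mouse samples in 4 groups, assigned from the submitters' labels. Each deposited value is a normalised signal, the reads of a gene over the sample's size factor, made by the authors with STAR 2.4.0 on mm10, counts over constitutive gene regions of FAST DB and DESeq2 normalization. Whether counting used strand is not given in the sources used here. Whole reads were recovered from every value within 1e-06 of a whole number. Depth was 19331876 to 32621917 reads on genes, and levels of a few reads are imprecise.

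Levels were tested as log2(level + 1) by limma 3.58.1 (R 4.3.3; trended variance) over genes with a mean of at least 10 in either group, and p-values were adjusted over all genes tested by the Benjamini-Hochberg method. Calls required a fold change of 1.5 or more and p before adjustment no greater than 0.05. Adding the pseudocount understates the change of low genes. Exact permutation tests were two-sided. Alternatives were pseudocounts of 0.1 and 10, no minimum or a minimum of 100, equal totals, all 19 samples in 1 fit, edgeR 4.0.16 and DESeq2 1.42.0 on the recovered reads, the replicate number as a block, and each replicate left out. Leaving out the 4 GFP+ samples with the fewest genes detected was chosen after seeing the data. The fits were tested on simulated data.

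The members and gene lists were chosen with earlier results of these data known. All 38 members may be named, of further neuronal genes those called between GFP+ groups, and cell type markers are given as counts, medians and ranges with at most 3 named per list. Of the further genes called lower in APP-SOCS3 against APP-GFP astrocytes, 1 is not reported here. No set test was run. Each statistic pools samples that may share a mouse.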

Additional observations from a re-analysis of the deposited data

Results flagged for a closer look

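Within groups of 4 to 10 samples, the highest or lowest sample stood apart from its nearest neighbour by Dixon's test in 20 of 106 groups tested, over 17 of the 38 genes. For normally distributed values chance marks about 1 in 20 groups. These levels are not so distributed, and in 6 of the 20 groups a single sample had reads and all others were at 0, which meets the test by construction.

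Among APP-SOCS3 astrocytes, replicate 2 had the highest Snap25 (382, next 88.2) and the lowest Syp (96.7, next 167). Calb1 was at 380 in replicate 5 (next 147), Gad2 at 46.0 in replicate 3 and Grin2a at 1.96 in replicate 4, both with all others at 0.

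In WT-GFP astrocytes, replicate 2 stood highest for Syt1 (182, next 47.6), Camk2b (753, next 278), Stmn3 (902, next 430.5) and Celf4 (360.0, next 144.6). Replicate 4 stood highest for Grin2a (3.93) and Dcx (5.90), the others being at 0, and for Scn2a1 (10.8, next 0.865). Gria1 was at 265 in replicate 7 (next 83.0), Pvalb at 220 in replicate 6 (next 97.4), Nefh at 207 in replicate 3 (next 29.3) and Sst at 1959 in replicate 1 (next 27.3).

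For APP-GFP astrocytes, Tubb3 was at 616 in replicate 2 (next 123), Celf4 at 183 in replicate 3 (next 62.5), Scn2a1 at 21.8 in replicate 3 and Slc32a1 at 1.81 in replicate 1, the last 2 with all others at 0.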

How the results depend on the processing

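No called difference changed direction under any alternative. In GFP+ astrocytes against GFP- cells, 19 genes were called, 12 with edgeR and 12 to 23 with 1 sample left out (12 without GFP- replicate 1). Without the 4 GFP+ samples with the fewest genes, 25 were called, and all genes then had a median of -0.80. In APP-GFP against WT-GFP astrocytes, 0 became 1 with edgeR, with DESeq2 (both Nefh) and with the replicate block (Stmn2), and 0 to 1 with 1 sample left out (Prox1 without APP-GFP replicate 2). In APP-SOCS3 against APP-GFP astrocytes, 4 became 2 with a pseudocount of 0.1, 1 with a minimum of 100, 0 by adjusted p, 2 without the 4 samples with the fewest genes and 1 to 3 with 1 sample left out. Of those 4 samples only APP-GFP replicate 2 is in this comparison, so that fit is the same as the one without APP-GFP replicate 2. The count was 1 without APP-SOCS3 replicate 1 or 4, and 2 without APP-SOCS3 replicate 3 or APP-GFP replicate 2 or 3. Without APP-GFP replicate 2 the calls were Rbfox3 and Reln, and Reln was newly called lower at -3.26. In APP-SOCS3 against WT-GFP astrocytes, 1 became 2 with edgeR (Sst lower), 0 by adjusted p, 3 without the 4 samples with the fewest genes (Dlg4, Celf4, Reln) and 1 to 3 with 1 sample left out, 3 without WT-GFP replicate 3 and 2 without WT-GFP replicate 4 or 7 or APP-SOCS3 replicate 2. The cause was not tested. Deviations of same-numbered samples from their group means correlated at -0.0761 to 0.154. In groups this small, such values cannot decide whether the numbers pair samples. With the replicate block 14, 1, 4 and 1 genes were called in the 4 comparisons, and Dlg4 lost its call against GFP- cells (log2 fold change 0.88).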
